A study of Mus musculus with 24 samples.

Results

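The microRNAs mmu-miR-143 and mmu-miR-145, the smooth muscle pair, were followed in the mouse lung through the first 6 weeks of life. They were taken as the array names equal to mmu-miR-143 or mmu-miR-145, which gave 2 of 650 miRNA names. Their levels came from 24 1-colour Agilent arrays of total RNA from whole lungs of healthy C57BL/6 mice, 1 array per biological replicate, and the labels name no treatment or altered allele. Day 1, day 4, day 7 and day 14 after birth have 5 arrays per age, and 4 arrays are of mice aged 6 weeks (day 42). The title of the series speaks of fetal lungs, but the design text and every label give postnatal ages, which were used. Since the lung was taken whole, fewer smooth muscle cells and less of a miRNA per cell cannot be told apart in any value below.

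A miRNA is a short RNA that lowers the output of the messages it pairs with. The pair is cut from a shared primary transcript, and in the RefSeq gene table both hairpin genes, Mir143 and Mir145a, lie inside the long noncoding gene Carmn, also named Mir143hg. Serum response factor and its partner myocardin switch this locus on in smooth muscle, and the pair represses factors such as Klf4 that hold smooth muscle cells in a dividing, non-contractile state. In the lung, the walls of the pulmonary arteries and of the airways carry this muscle, and the walls of the air sacs hold the related myofibroblasts while alveoli form.

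The sequences below belong to miRNAs whose levels over the 24 arrays ran most like or most unlike those of a member, as given further on, and are shown for their base make-up. They are mature sequences from RefSeq (GRCm38.p6), written 5′ to 3′, with the seed (bases 2 to 8, the part that pairs with a target) in capitals. No 2 of them have the same seed. Those most like miR-145 were:
miR-690: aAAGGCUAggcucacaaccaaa
miR-574-3p: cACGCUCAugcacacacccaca
miR-1906: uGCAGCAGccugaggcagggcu
miR-744*: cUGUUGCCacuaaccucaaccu
Those most unlike miR-145 were:
miR-21: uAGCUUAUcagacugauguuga
miR-33: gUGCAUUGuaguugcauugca
miR-141: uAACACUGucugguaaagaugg
Those most like miR-143 were:
miR-148b: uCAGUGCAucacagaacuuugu
miR-31*: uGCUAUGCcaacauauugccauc
miR-106b: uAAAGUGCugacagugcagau
miR-340-5p: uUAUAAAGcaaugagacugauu
miR-27b: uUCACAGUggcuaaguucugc
The third most like miR-145, miR-328, is given by name only. The share of G and C was 45.5% to 68.2% in the 4 sequences shown for those most like miR-145 and 36.4% to 42.9% in the 3 most unlike it. It was 27.3% to 47.6% in the 5 most like miR-143, which overlaps with both other ranges. Those most unlike miR-143 are not shown.

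Each level is the summed signal of a miRNA's probes, scaled to the array's 75th percentile over the 228 miRNAs detected on all arrays and given as log2, so that a step of 1 is a doubling. Both members were detected on all 24 arrays, each through 2 probes with 10 spots per probe. All 960 member spots were above background and none was saturated. The arrays detected 266 to 348 miRNAs, and their 75th percentile signal ran from 923 to 4954. On the second principal component of the tested miRNAs, computed without the members and carrying 22% of the variance, the 5 highest arrays were set apart. Their scores were 4.96 to 15.6, against -7.27 to 3.10 on the other 19. The cut was made by rank and not at a gap. Day 4 replicate 3, at 4.96, was nearer to day 1 replicate 1, kept at 3.10, than to the next of the 5, at 9.99. The 5, said below to stand apart, were day 1 replicates 4 and 5, day 4 replicates 1 and 3, and day 42 replicate 4. They were mostly dim, with 75th percentile signals of 923 to 1727, but the other 19 overlapped with them at 1571 to 4954. Day 1 replicate 1, at 1571, was dimmer than day 42 replicate 4, at 1727. A further array, day 1 replicate 2, was high in miRNAs of striated and heart muscle. The log2 of the summed signals of miR-1, miR-133a, miR-133b and miR-208b was 15.18 there and 8.48 to 12.49 on the other 23 arrays. Results of the 2 members that rest on these arrays are given with and without them.

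With all arrays, miR-143 rose from day 1 to day 7 by 0.58 ± 0.15 (SE) on the log2 scale, 1.49-fold. It then fell between day 14 and day 42 by 0.48 ± 0.16, a level 1.39-fold lower. Once the 5 arrays that stood apart were left out, the rise was 0.34 ± 0.11 and not called (adjusted p = 0.0527), and the fall was 0.46 ± 0.11. Against day 1, the level at day 42 depended on the scaling: it differed by 0.03 in the main setting, by called rises of 0.40 to 1.04 under 3 of 7 other settings, and by -0.28 with scaling on the summed signal. For miR-145 no difference between ages passed the test with all arrays. Its scaled levels on the 5 arrays that stood apart exceeded the highest of the other 19, while its signals there before scaling lay within the range of the other 19.

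At day 1 miR-143 read 11.76, 12.01, 12.29, 11.17 and 11.66 on replicates 1 to 5, a mean of 11.78 ± 0.42 (SD, n = 5). At day 4 it read 11.82, 12.36, 12.26, 12.19 and 12.22, a mean of 12.17 ± 0.21 (SD, n = 5). The low arrays of these ages were day 1 replicate 4, day 1 replicate 5 and day 4 replicate 1, all among the 5 that stood apart, and day 1 replicate 1, which was not. At day 7 the readings were 12.40, 12.41, 12.17, 12.42 and 12.39, a mean of 12.36 ± 0.10 (SD, n = 5). At day 14 they were 12.38, 12.38, 12.29, 12.19 and 12.19, a mean of 12.29 ± 0.09 (SD, n = 5). These were the tightest ages. The 4 arrays of day 42 gave 11.91, 11.66, 11.92 and 11.76, a mean of 11.81 ± 0.12 (SD, n = 4). Every one of them lay below every array of day 7 and day 14, whereas day 1 overlapped with all the other ages.

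**Figure D1:**
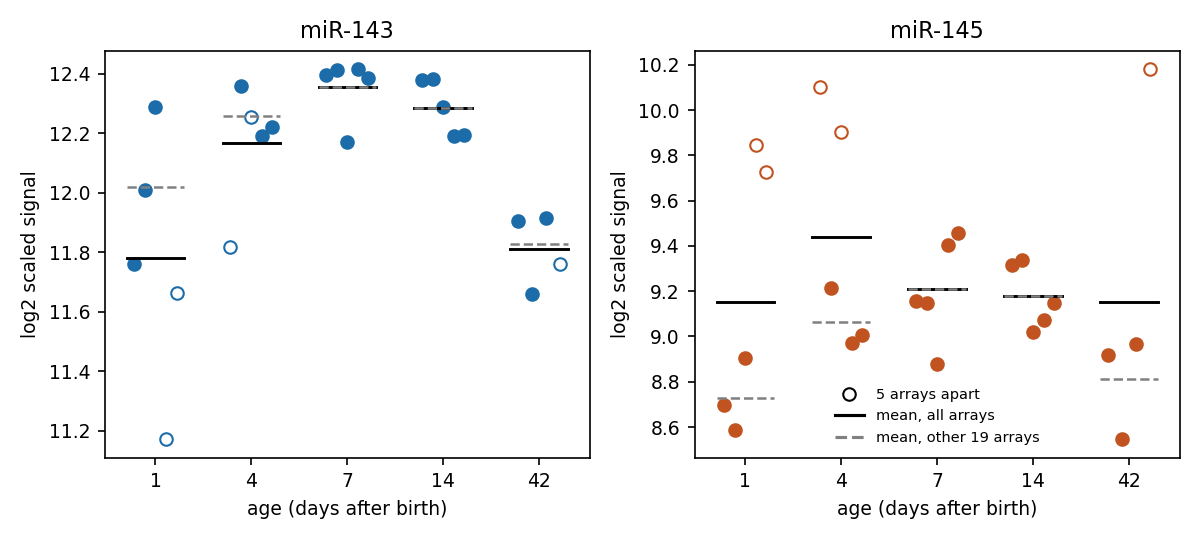
Levels of miR-143 (left) and miR-145 (right) on each array, as log2 scaled signal, against age in days after birth; open circles are the 5 arrays that stood apart, the solid bar is the mean of all arrays and the dashed bar the mean without those 5. For miR-143 the 4 arrays of day 42 lie below all 10 arrays of days 7 and 14, and for miR-145 the 5 open circles, from 9.73 to 10.18, lie above all other arrays.

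The course of miR-143 was tested with limma across 322 miRNAs, those that every array of some age detected, with Benjamini-Hochberg adjustment over all 322 and a call at an adjusted p under 0.05. Over the 5 ages miR-143 differed with an adjusted p of 0.0045, among 65.5% of tested miRNAs called by the same F-test. The rise from day 1 was called at day 7 (adjusted p = 0.0131, higher in 24 of 25 pairs of arrays) and at day 14 (0.51 ± 0.15, adjusted p = 0.0077, higher in 22 of 25 pairs). The background share of calls was 15.8% for day 7 against day 1 and 53.7% for day 14 against day 1. Brightness differed between these ages. The 75th percentile signals were 923 to 2183 at day 1, 2171 to 2696 at day 7 and 2302 to 4954 at day 14. With brightness as a covariate both rises were smaller and not called, and without the 5 dimmest arrays they were smaller still and not called. Fitted on only the arrays of the 2 ages compared, they kept their size but were not called. These values are given in the closing section. The part of brightness in these rises was not tested. At day 4 the difference from day 1 was 0.39 ± 0.15 with an adjusted p of 0.245, where 1.55% of miRNAs were called.

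The later fall was called from day 7 to day 42 (-0.55 ± 0.16, adjusted p = 0.00618) and from day 14 to day 42 (-0.48 ± 0.16, adjusted p = 0.0270). In both comparisons none of 20 pairs of arrays was higher at day 42. Calls were made for 57.8% of miRNAs in the first and 32.6% in the second comparison. Arrays of the 2 ages did not overlap for 51.9% of miRNAs in the first and for 29.8% in the second. Day 42 against day 4 gave -0.36 ± 0.16 (adjusted p = 0.0612, 59.6% called). Ordered by mean, day 7 stood highest, followed by day 14, day 4, day 42 and day 1. Of neighbours in that order, none differed by a called amount: day 14 against day 7 was at -0.07 (95% CI -0.39 to 0.25, 31.4% called), day 14 against day 4 at 0.12 (-0.20 to 0.43, 39.4% called), and day 42 against day 1 at 0.03 (-0.30 to 0.37, 61.8% called). The step from day 4 to day 7 was 0.19 (-0.13 to 0.50), where 0.311% of miRNAs were called.

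With all arrays, the F-test and the rise from day 1 to day 7 were called under all 7 other scaling and background settings, with rises of 0.49 to 1.30. The rise to day 14 kept its sign under all 7 (0.22 to 1.60) and was called under 4. The fall from day 14 to day 42 also kept its sign under all 7 (-0.56 to -0.20) but was called under 1, scaling on the summed signal. That call was lost too without any of 4 arrays, day 14 replicates 1 and 2 (both adjusted p = 0.055) and day 42 replicates 2 (0.081) and 4 (0.051). The fall from day 7 to day 42 was called under 4 and turned to 0.10, uncalled, where the 75th percentile was taken over all names. The median of the 322 tested miRNAs shifted with the scaling too, from -0.57 to 0.89 for day 14 against day 1 and from -0.62 to 0.09 for day 42 against day 14; in the main setting it was -0.17 in both. Relative to that median miR-143 stood 0.68 higher in the first comparison and 0.31 lower in the second. Against the medians of the 7 other settings it stood 0.15 to 1.14 higher in the first. In the second it stood 0.29 to 0.45 lower under 6 of them and 0.19 higher under normexp background correction.

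**Figure D2:**
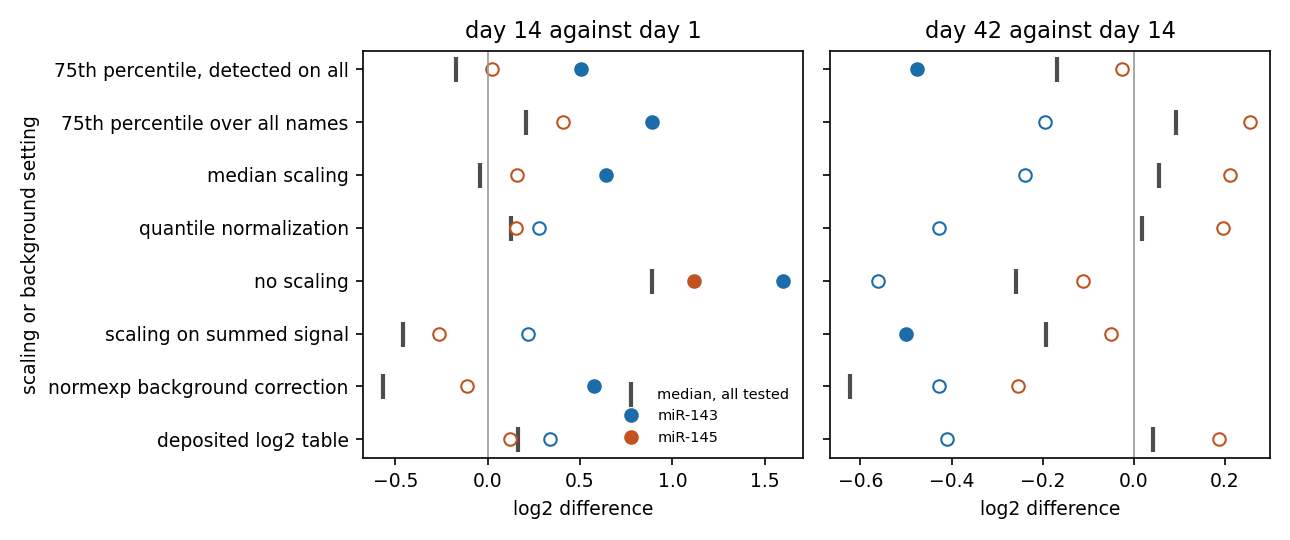
Log2 differences of miR-143 (blue) and miR-145 (orange) for day 14 against day 1 (left) and day 42 against day 14 (right) under the main scaling (top) and the 7 other settings; grey ticks mark the median of the 322 tested miRNAs, and filled circles have an adjusted p under 0.05. On the left miR-143 is above 0 in every setting, from 0.22 to 1.60, and on the right it is below 0 in every setting, from -0.56 to -0.20, whereas miR-145 is on either side of 0 in both panels.

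The 24 arrays lay on 3 slides of 8, and each slide held all 5 ages with 1 or 2 arrays per age. Within slides 1, 2 and 3 the difference of miR-143 between day 42 and day 14 was -0.62, -0.47 and -0.48, and between day 14 and day 1 it was 0.82, 0.37 and 0.26. All 6 values had the sign of the pooled ones. Its 2 probes gave like results: day 14 against day 1 was 0.47 and 0.53, day 42 against day 14 was -0.52 and -0.45, and their levels correlated at r = 0.90 over the 24 arrays.

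For miR-145 the spread within ages was wider. At day 1 it read 8.70, 8.59, 8.90, 9.85 and 9.73 on replicates 1 to 5, a mean of 9.15 ± 0.59 (SD, n = 5). At day 4 the readings were 10.10, 9.22, 9.90, 8.97 and 9.01, with a mean of 9.44 ± 0.53 (SD, n = 5). In each of these ages the 2 highest values came from the 2 arrays that stood apart. Day 7 gave 9.16, 9.15, 8.88, 9.40 and 9.46, with a mean of 9.21 ± 0.23 (SD, n = 5), and day 14 gave 9.32, 9.34, 9.02, 9.07 and 9.15, with a mean of 9.18 ± 0.14 (SD, n = 5). No array of these ages stood apart. Day 42 gave 8.92, 8.55, 8.97 and 10.18, with a mean of 9.15 ± 0.71 (SD, n = 4), where the last value again came from an array that stood apart.

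With all arrays the F-test for miR-145 gave an adjusted p of 0.848. Day 14 against day 1 was at 0.03 ± 0.29 (95% CI -0.57 to 0.62), day 42 against day 14 at -0.03 ± 0.31 (-0.66 to 0.61), and day 42 against day 1 at 0.00 ± 0.31 (-0.63 to 0.64). These intervals include changes as large as those called for miR-143, so that such changes were not detectable at this spread. Its sign was not settled either: day 42 against day 14 kept its sign under only 3 of 7 other scaling and background settings. Within slides 1, 2 and 3 this difference was -0.65, -0.39 and 1.1. Slide 3 held 1 array of day 42, replicate 4, which stood apart, so the value of that slide rests on it. Slide 2, on which no array stood apart and whose only day 1 array was the one high in muscle miRNAs, gave 0.75 for day 14 against day 1, against -0.08 and -0.23 on slides 1 and 3.

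On the 5 arrays that stood apart, miR-145 was 1.12 and 1.00 (day 1 replicates 4 and 5), 1.04 and 0.84 (day 4 replicates 1 and 3) and 1.37 (day 42 replicate 4) above the mean of the other arrays of its age. The mean deviation of 1.07 was the 6th highest of the 322 tested miRNAs, whose median was 0.15 with quartiles of -0.39 and 0.55. On the same arrays miR-143 was below the other arrays of its age, by 0.85, 0.36, 0.44, 0.00 and 0.07 in the same order, and its mean deviation of -0.34 ranked 235. Brightness moved with these values: within ages, miR-145 changed by -0.92 per doubling of the array's 75th percentile, the 13th lowest of 322, and miR-143 by 0.26. Before scaling the slopes were 0.08 for miR-145 and 1.26 for miR-143. Scaling divides by that same brightness, so the slopes before and after it are the same observation. The slopes include the 5 arrays that stood apart. On the other arrays of day 1, raw miR-145 rose with brightness (290, 328 and 465 at 75th percentiles of 1571, 1917 and 2183). At day 4 it did not (574, 533 and 568 at 2170, 2330 and 2546). Among the 283 of 319 mouse miRNAs with a match in the RefSeq table (88.7%), this deviation was higher where the arms of the hairpin held more G and C, with r = 0.39 and rho = 0.40 as a description over miRNAs that share the 5 arrays. The median deviation was -0.14 in the 94 miRNAs with the lowest share of G and C, 0.06 in the middle 94 and 0.51 in the 95 with the highest share. The part of brightness or of base make-up in the readings of miR-145 was not tested.

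**Figure D3:**
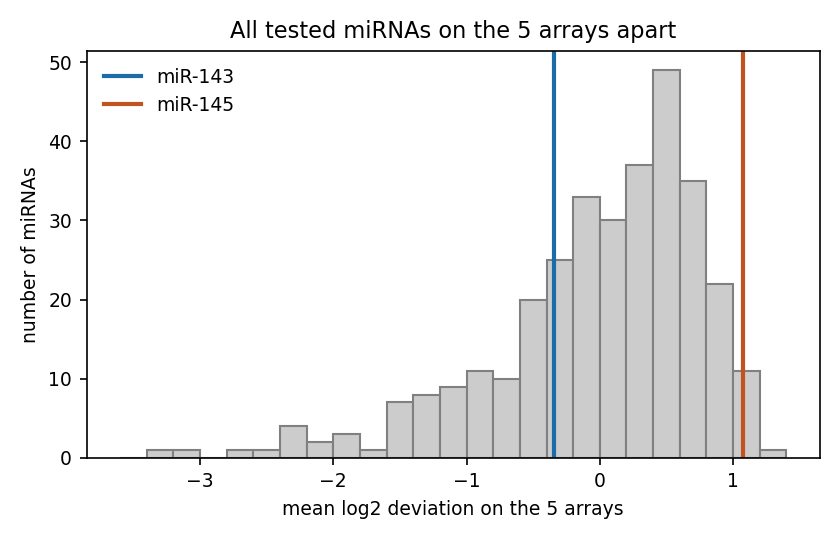
Histogram of the mean log2 deviation of each of the 322 tested miRNAs on the 5 arrays that stood apart, taken against the other arrays of the same age (x axis, log2 units; y axis, number of miRNAs). The blue line marks miR-143 at -0.34 and the orange line miR-145 at 1.07, near the upper end of all miRNAs.

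Without the 5 arrays the means of both members rose to day 7 and were lower at day 42. The means of miR-145 over the remaining 3, 3, 5, 5 and 3 arrays were 8.73, 9.06, 9.21, 9.18 and 8.81 from day 1 to day 42, and those of miR-143 were 12.02, 12.26, 12.36, 12.29 and 11.83. The lowest age differed: day 1 for miR-145 and day 42 for miR-143. Both stood highest at day 7 in the main setting, but day 14 stood higher than day 7 under 6 of the 7 other settings for miR-145 and under 3 for miR-143. In this set, chosen after the data had been seen, limma gave an adjusted p over the ages of 0.0141 for miR-145 and 0.0022 for miR-143, with 71.1% of miRNAs called.

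Day 7 against day 1 was then called for miR-145 (0.48 ± 0.14, 1.39-fold, adjusted p = 0.0360, but -0.052 under normexp) and not for miR-143 (0.34 ± 0.11, adjusted p = 0.0527), with 12.4% of miRNAs called. Day 14 against day 1 was called for both, at 0.45 ± 0.14 for miR-145 (adjusted p = 0.0108) and 0.27 ± 0.11 for miR-143 (adjusted p = 0.0485), with 58.7% called. For miR-145 the 3 arrays of day 1 (8.59 to 8.90) lay below all 5 arrays of day 14 (9.02 to 9.34), a separation seen in 47.8% of miRNAs. These rises rest on 3 arrays of day 1, of which replicate 2 carried the muscle miRNAs. With that array left out too, the rise of miR-145 to day 14 was 0.38 ± 0.16 (adjusted p = 0.0537) and that to day 7 was 0.41 (adjusted p = 0.135), while that of miR-143 to day 14 was 0.26 (adjusted p = 0.0995). The rise of miR-145 to day 14 kept its sign under all 7 other scaling and background settings (0.11 to 1.18) and was called under 5. The call of miR-143 at day 14 was also unsteady here, and held in 6 of 19 fits that each left out 1 array, and that of miR-145 at day 7 in 13.

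Without the 5 arrays, the later fall was called for both members. Day 42 against day 14 was at -0.46 ± 0.11 for miR-143 (adjusted p = 0.00246) and at -0.37 ± 0.14 for miR-145 (adjusted p = 0.0381), with 46.3% of miRNAs called and no overlap of the 2 ages for 43.2%. Neither member overlapped between these ages. Day 42 against day 7 was also called for both, at -0.53 ± 0.11 and -0.40 ± 0.14 (adjusted p = 0.000405 and 0.0164), with 70.2% called. Day 42 against day 4 was called for miR-143 alone (-0.43 ± 0.12, adjusted p = 0.00525, 66.1% called) and was at -0.25 ± 0.15 for miR-145 (adjusted p = 0.161). Its sign turned under 2 of the 7 other settings for miR-143 (0.15 and 0.25) and under 5 for miR-145, where the scaling to all names called a rise (0.42, adjusted p = 0.0213) and the summed signal a fall (-0.43, adjusted p = 0.0071). The fall of miR-145 from day 14 kept its sign under all 7 other settings (-0.57 to -0.02) and was called under 1, and that of miR-143 also kept its sign (-0.41 to -0.11) and was called under 3. With 1 of the 19 arrays left out, the fall of miR-143 from day 14 was called each time and that of miR-145 in 16 of 19 fits (-0.45 to -0.24), not without day 42 replicate 2 or day 14 replicates 1 or 2. From day 7 to day 42, by contrast, miR-145 changed sign under 3 of the 7 (0.03 to 0.31) and miR-143 under 2 (0.01 and 0.18). Day 42 against day 1 (69.3% called), day 4 against day 1 (1.24%), day 7 against day 4 (0%), day 14 against day 7 (50.9%) and day 14 against day 4 (48.1%) were called for neither member in the main setting. The first of these was called under 5 of the 7 other settings for each member, between -0.35 and 0.71 for miR-143 and between -0.46 and 0.98 for miR-145, so that its direction rests on the scaling. Day 14 against day 7 was called under 2 for miR-143 and 1 for miR-145. For day 7 against day 4, limma called 0 miRNAs in this set, and 4 had an unadjusted p under 0.05.

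**Figure D4:**
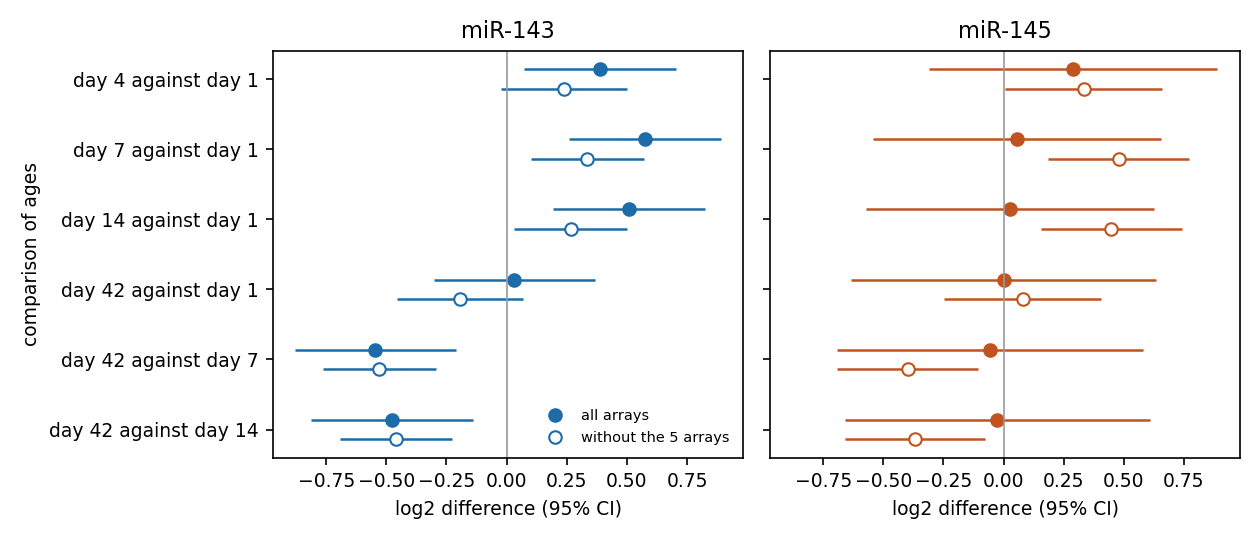
Log2 differences between ages with 95% confidence intervals from limma for miR-143 (left) and miR-145 (right), with all 24 arrays (filled) and without the 5 that stood apart (open). For miR-145 the difference between day 14 and day 1 is 0.03 with all arrays and 0.45 without the 5, and for miR-143 the values of day 42 against day 14, -0.48 and -0.46, nearly coincide.

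Since both miRNAs come from a shared transcript, the log2 level of miR-145 minus that of miR-143 was also taken on each array. A factor that scales an array cancels in it, and only its variation between arrays was read, since the levels of different probes are not comparable. It lay between -3.42 and -2.93 on the 19 arrays and between -2.35 and -1.33 on the 5 that stood apart, with no overlap. In exact permutation tests (two-sided, Benjamini-Hochberg over 5 comparisons) no comparison of ages passed. With all arrays the shifts ran from -0.42 for day 7 against day 4 to 0.45 for day 42 against day 14, with adjusted p-values of 0.397 to 0.905. Without the 5 arrays the mean difference was -3.29, -3.19, -3.15, -3.11 and -3.02 from day 1 to day 42, higher at each later age. The shifts then ran from 0.04 to 0.27, with adjusted p-values of 0.50 to 0.714 in the exact permutation tests. With 3 arrays against 3 the smallest p such a test allows is 0.10, and with 3 against 5 it is 0.0357. After adjustment over the 5 comparisons only day 14 against day 7 could have passed on the 19 arrays, so that the other p-values say nothing of a difference there.

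**Figure D5:**
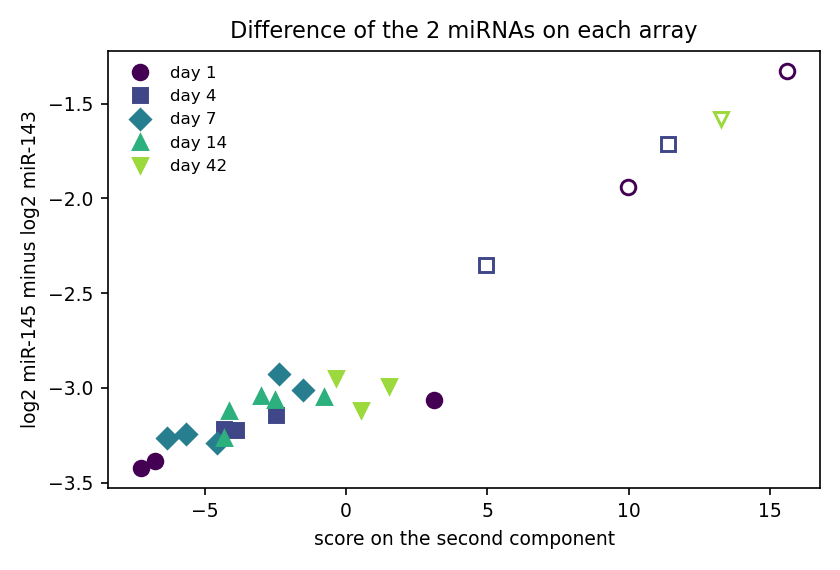
The log2 level of miR-145 minus that of miR-143 on each array (y axis) against the array's score on the second principal component of the other tested miRNAs (x axis), with ages by colour and symbol and the 5 arrays that stood apart as open symbols. The filled symbols lie between -3.42 and -2.93 and the open ones between -2.35 and -1.33.

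A marked positive correlation of the 2 members within ages appeared only when the 5 arrays were left out. Deviations from the age mean correlated at r = -0.43 over all 24 arrays (permutation p = 0.112, rho = -0.26 with p = 0.308), and at r = 0.71 over the 19 (permutation p = 0.00186, rho = 0.70 with p = 0.0027). After Benjamini-Hochberg adjustment over the 5 such correlations computed, the p-values of r were 0.187 and 0.0053. Without the 2 arrays farthest from the median of miR-143 the values were r = -0.29 over 22 arrays and r = 0.83 over 17. After regression on brightness, r over the 24 arrays was 0.04. The set of 19 was chosen after the data had been seen. The 5 arrays left out have the highest values of miR-145 minus miR-143 (-2.35 to -1.33, against -3.42 to -2.93). Both deviations also share the scaling of their array, and r of other pairs was not taken. These p-values are against no correlation at all, so they do not show that this pair moves together more than other miRNAs.

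Over the 24 arrays, the levels most like those of miR-143 were those of miR-148b (r = 0.94), miR-31* (0.93), miR-106b (0.87), miR-340-5p (0.86) and miR-27b (0.86). The most unlike were miR-1224 (-0.74), miR-200b* (-0.71) and miR-483 (-0.69). For miR-145 the most like were miR-690 (0.91), miR-574-3p (0.91), miR-328 (0.89), miR-1906 (0.87) and miR-744* (0.86), and the most unlike were miR-21 (-0.84), miR-33 (-0.81) and miR-141 (-0.79). Each member stood far down the other's list, at r = -0.21, rank 228 of 321 for miR-143 and rank 245 for miR-145. Over the 19 arrays miR-143 was the miRNA most like miR-145 (r = 0.83), ahead of miR-181a (0.83) and miR-27b (0.81), and miR-145 was the 5th most like miR-143, after miR-148b (0.89), miR-181a (0.86), miR-31* (0.85) and miR-218 (0.85). These correlations are descriptions: the arrays share ages, scaling and brightness.

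The minor arm of the miR-145 hairpin, miR-145*, was near the floor of 2.86, with levels of 2.86 to 4.83. It was detected on 1 of 5 arrays at day 1, 4 of 5 at day 4, 5 of 5 at days 7 and 14 and 3 of 4 at day 42. Since 4 of the 5 day 1 arrays did not detect it, the size of a difference from day 1 depends on the floor. As fitted, it was 0.97 ± 0.30 at day 7 (adjusted p = 0.0337) and 1.05 ± 0.30 at day 14 (adjusted p = 0.0057), but normexp turned both signs (-1.15 and -0.70). On the 19 arrays these values were 0.73 (adjusted p = 0.0626) and 0.80 (adjusted p = 0.0130). On the 5 arrays where miR-145 was high, miR-145* stood at -0.51 on average against the other arrays of its age. Among them only day 4 replicate 3 detected it, and there it stood at 0.31. The mean of -0.51 thus rests mostly on arrays that did not detect miR-145*. The 2 arms correlated at r = -0.20 over the 24 arrays and at r = 0.68 over the 19, as a description.

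Other miRNAs of smooth muscle and of the cells around it were read from lists of general knowledge. Of 6 tied to the contractile state, miR-22 rose between day 1 and day 14 (1.02 ± 0.13), miR-204 fell (-1.35 ± 0.25) and miR-1, miR-133a, miR-133b and miR-10a were not called; from day 14 to day 42, miR-10a (0.58) and miR-22 (0.37) rose and miR-204 fell (-0.78). The list median was 0.52 for day 14 against day 1 and -0.09 for day 42 against day 14, beside -0.17 over all tested miRNAs in both. Of this list, miR-1, miR-133a and miR-133b are also on the list of striated and heart muscle given below, so the medians of these lists are not separate readings. Of 8 tied to dividing smooth muscle, miR-146a (0.92), miR-31 (0.83), miR-222 (0.61, but -0.082 under normexp), miR-26a (0.54) and miR-24 (0.45) rose between day 1 and day 14 and none fell. The list median was 0.49, and afterwards 1 of 8, miR-130a, fell (-0.67). In the first comparison 21.1% of miRNAs were called as rises and 32.6% as falls, and in the second 4.66% and 28%. That split moved with the scaling: of the calls in the first comparison, 39.3% were rises in the main setting and 21.8% to 85.5% in the others, and in the second 14.3% and 10.8% to 42.3%.

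Mesenchymal miRNAs are made by fibroblasts and their precursors. Of the 4 tested, miR-214 (-2.02), miR-199a-5p (-1.09) and miR-199a-3p (-0.32, with the sign turned under 2 of the 7 other settings) fell between day 1 and day 14 and none rose. From day 14 to day 42 miR-199a-5p (-0.52) and miR-199a-3p (-0.46) fell and miR-10b rose (0.57). The log2 of their summed signals, called the summed level below, was 13.96 to 14.39 at day 1, 13.43 to 13.84 at day 14 and 13.05 to 13.39 at day 42. Such a sum follows its brightest members most.

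Markers of other cell types also differed between the ages. Both arms of miR-126, a miRNA of the vessel lining, rose between day 1 and day 14 (0.80 and 1.13), from a summed level of 14.96 to 15.59 to one of 15.81 to 16.33, and neither was called from day 14 to day 42. Of 4 miRNAs of blood cells, the 2 arms of miR-142 rose between day 1 and day 14 (1.92 and 2.02), and miR-150 (1.04) and miR-223 (0.76) rose from day 14 to day 42. Their summed level was 11.97 to 12.86 at day 1, 12.59 to 13.34 at day 14 and 13.26 to 13.69 at day 42. Of 5 epithelial miRNAs, miR-200a rose between day 1 and day 14 (0.73) and none was called afterwards, with summed levels of 13.59 to 13.95, 13.70 to 13.96 and 13.83 to 14.03 at the 3 ages. Of the 7 miRNAs of striated and heart muscle, miR-206, miR-208a and miR-499 were detected on only 1, 2 and 3 arrays. The other 4 were called in neither comparison, and their summed level ran from 8.48 to 15.18 at day 1 and from 10.22 to 12.49 at day 14. Without the 5 arrays, 2 contractile miRNAs rose and 1 fell between day 1 and day 14, 6 of the 8 tied to dividing muscle rose and 2 fell, and 3 mesenchymal ones fell. Of all tested miRNAs 58.7% were called in that comparison, with rises and falls not counted apart. The contractile and striated lists share miR-1, miR-133a and miR-133b. Without the 5 arrays their medians were -0.61 and -0.71, and 0.87 for both with day 1 replicate 2 also left out. Their direction on those arrays thus rested on 1 array. With that array alone left out, miR-1, miR-133a and miR-133b were called as rises between day 1 and day 14 and the 2 medians became 1.30 and 1.61, while the calls of miR-222 and miR-199a-3p were lost. The share of all tested miRNAs called without that array is not given here, so these calls have no background beside them. The part of these cell types in the course of the members was not tested.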

How the data were processed

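Per the labels, 100 ng of total RNA (miRNeasy kit) was Cy3-labelled for each array. The authors used Agilent Feature Extraction 10.7.1.1 to read the spots, per the file headers and the submitters' processing notes; later steps are not given in the sources used here. The deposited intensity values of the spots are background-subtracted and not adjusted between arrays. The deposited series table holds log2 values with a median of 2.41 on every array and served as an alternative. Spot signals were averaged per probe without outlier spots, probes of a miRNA were summed, arrays were scaled, values under 7.24 were set to that floor, and log2 was taken. limma 3.58.1 (R 4.3.3) was fitted with 1 mean per age (19 residual degrees of freedom with all 24 arrays, 14 without the 5 arrays that stood apart). For normexp (offset 50) the median spot signal was used in place of the planned mean signal; day 1 replicate 3 and day 14 replicate 3 then correlated with their main values at r = 0.33 and 0.51, the other arrays at 0.79 to 0.93, so that normexp values at those ages rest on arrays it changed strongly. The scripts were tested on simulated data. Tables and exact tests used Python 3.11.15 and scipy 1.17.1.

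Named miRNAs were the members, their minor arms on the array, the 5 with the highest and the 3 with the lowest correlation to each member, and the listed miRNAs; miR-181a and miR-218 came from the same correlation over 19 arrays. Members, lists and rules were chosen with earlier results of these data known. The labels call the arrays biological replicates. Array number and spread limit the precision. Alternatives were other scalings, background corrections, filters, single probes, covariates, blocks and arrays left out.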

Additional observations from a re-analysis of the deposited data

Results flagged for a closer look

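Each age was checked for a single array far from the rest of its group, for the level of each member and for the difference between them, which made 15 groups, and chance alone flags about 1 in 20. In 2 of them an array stood out. The level of miR-143 on day 7 replicate 3 was 12.17, while the nearest other array of that age read 12.39. The log2 level of miR-145 minus that of miR-143 was -1.58 on day 42 replicate 4, while the nearest other array of that age was at -2.95.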

How the results depend on the processing

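The F-test of miR-143, its rises from day 1 to days 7 and 14 and its fall from day 7 to day 42 were called whichever single array was left out. Its fall from day 14 to day 42 was called in 20 of 24 such fits. Its difference between day 42 and day 4, not called in the main setting, was called in 3 (-0.45 to -0.31 over all 24). The other alternatives that changed a call or a direction of a member, or a count, are given next, as log2 differences unless a count or a p is named. A listed value can be a lost call, a new call or a change of sign without a call. Values on single slides and the difference of the members can also be listed for a shift in size. The cause of these changes was not tested. The counts in the main setting were 211 over the 5 ages, 5 (day 4 against 1), 1 (day 7 against 4), 101 (day 14 against 7) and 105 (day 42 against 14), all adjusted p-values from limma. For day 7 against 4, where several alternatives called 0, the main setting had 15 miRNAs and the 19 arrays 4 at an unadjusted p under 0.05. With the 75th percentile over all names, miR-143 was 0.69 (day 42 against 1), 0.29 (day 14 against 7), -0.20 (day 42 against 14), 0.46 (day 14 against 4), 0.27 (day 42 against 4) and 0.098 (day 42 against 7), and miR-145 was 0.33 (day 14 against 7), 0.25 (day 42 against 14), 0.084 (day 14 against 4), 0.34 (day 42 against 4) and 0.59 (day 42 against 7). Under it miR-143 on the 19 arrays was 0.50 (day 7 against 1), 0.25 (day 42 against 4), 0.18 (day 42 against 7) and -0.11 (day 42 against 14), and miR-145 on the 19 arrays was 0.42 (day 42 against 4), 0.31 (day 42 against 7) and -0.023 (day 42 against 14). With this choice the number of calls was 156 (day 14 against 7). With median scaling, miR-143 was 0.40 (day 42 against 1), 0.089 (day 14 against 7), -0.24 (day 42 against 14) and -0.15 (day 42 against 7), and miR-145 was 0.13 (day 14 against 7), 0.21 (day 42 against 14), 0.056 (day 42 against 4) and 0.34 (day 42 against 7). In that setting miR-143 on the 19 arrays was 0.46 (day 7 against 1), -0.045 (day 42 against 4), -0.099 (day 42 against 7) and -0.19 (day 42 against 14), and miR-145 on the 19 arrays was 0.13 (day 42 against 4), 0.031 (day 42 against 7) and -0.096 (day 42 against 14). With quantile normalization, miR-143 was -0.15 (day 42 against 1), -0.43 (day 42 against 14), 0.28 (day 14 against 1), -0.039 (day 14 against 4) and -0.47 (day 42 against 4), and miR-145 was 0.062 (day 14 against 7), 0.20 (day 42 against 14) and 0.26 (day 42 against 7). With this choice their difference was 0.50 (day 42 against 1) and 0.059 (day 4 against 1), and miR-143 on the 19 arrays was 0.043 (day 14 against 1). There too miR-145 on the 19 arrays was 0.072 (day 42 against 4), -0.012 (day 42 against 7) and -0.074 (day 42 against 14), and the number of calls was 8 (day 4 against 1) and 0 (day 7 against 4). Without scaling, miR-143 was 1.04 (day 42 against 1), 0.30 (day 14 against 7), -0.56 (day 42 against 14), 0.28 (day 42 against 4) and -0.26 (day 42 against 7), and miR-145 was 4.6e-05 (F-test p), 1.01 (day 42 against 1), 0.12 (day 7 against 4), 0.34 (day 14 against 7), 0.78 (day 7 against 1), 1.12 (day 14 against 1), 0.46 (day 14 against 4), 0.35 (day 42 against 4) and 0.23 (day 42 against 7). Under it miR-143 on the 19 arrays was 0.15 (day 42 against 4), 0.010 (day 42 against 7) and -0.29 (day 42 against 14), and miR-145 on the 19 arrays was 0.32 (day 42 against 4), 0.14 (day 42 against 7) and -0.20 (day 42 against 14). With this choice the number of calls was 3 (day 4 against 1), 0 (day 7 against 4) and 65 (day 42 against 14). With scaling on the summed signal, miR-143 was -0.28 (day 42 against 1), 0.22 (day 14 against 1), -0.051 (day 14 against 4) and -0.55 (day 42 against 4), and miR-145 was -0.31 (day 42 against 1), -0.031 (day 7 against 1) and -0.26 (day 14 against 1). In that setting miR-143 on the 19 arrays was 0.32 (day 7 against 1) and 0.049 (day 14 against 1), and miR-145 on the 19 arrays was 0.23 (day 14 against 1) and -0.43 (day 42 against 4). Under it the number of calls was 14 (day 4 against 1). With probe 1 alone, miR-143 was -0.044 (day 42 against 1) and -0.48 (day 42 against 4), and miR-145 was 0.011 (day 14 against 7), 0.0012 (day 42 against 14) and 0.012 (day 42 against 7). In the deposited log2 table, miR-143 was -0.072 (day 42 against 1), -0.41 (day 42 against 14) and 0.34 (day 14 against 1), and miR-145 was 0.072 (day 14 against 7), 0.19 (day 42 against 14) and 0.26 (day 42 against 7). In that setting their difference was 0.38 (day 42 against 1) and 0.016 (day 4 against 1), and miR-143 on the 19 arrays was 0.11 (day 14 against 1). Under it miR-145 on the 19 arrays was 0.084 (day 42 against 4), -0.0087 (day 42 against 7) and -0.081 (day 42 against 14), and the number of calls was 0 (day 7 against 4). With brightness as a covariate, miR-143 was -0.23 (day 42 against 1), 0.39 (day 7 against 1), 0.22 (day 14 against 1), -0.072 (day 14 against 4) and -0.53 (day 42 against 4), and miR-145 was 0.00176 (F-test p), 0.92 (day 42 against 1), 0.62 (day 4 against 1), 0.093 (day 7 against 4), 0.31 (day 14 against 7), 0.72 (day 7 against 1), 1.02 (day 14 against 1), 0.40 (day 14 against 4), 0.30 (day 42 against 4) and 0.20 (day 42 against 7). There too their difference was 1.15 (day 42 against 1) and 0.47 (day 14 against 7), and the number of calls was 28 (day 4 against 1) and 153 (day 14 against 7). With slide as a block, miR-143 was -0.020 (day 42 against 1), and miR-145 was 0.053 (day 42 against 14). Without the 5 dimmest arrays, miR-143 was -0.34 (day 42 against 1), 0.21 (day 7 against 1), 0.14 (day 14 against 1) and -0.45 (day 42 against 4), and miR-145 was 0.15 (day 7 against 4), 0.11 (day 14 against 4) and 0.089 (day 42 against 4). With this choice their difference was 0.75 (day 42 against 1), 0.21 (day 4 against 1) and 0.046 (day 7 against 4), and the number of calls was 0 (day 7 against 4). Without the 5 arrays highest on the second component, miR-143 was -0.19 (day 42 against 1), 0.34 (day 7 against 1) and -0.43 (day 42 against 4), and miR-145 was 0.0141 (F-test p), 0.15 (day 7 against 4), -0.37 (day 42 against 14), 0.48 (day 7 against 1), 0.45 (day 14 against 1), 0.11 (day 14 against 4) and -0.40 (day 42 against 7). In that setting their difference was 0.27 (day 42 against 1), 0.097 (day 4 against 1) and 0.046 (day 7 against 4), and the number of calls was 0 (day 7 against 4) and 164 (day 14 against 7). Without those 5 arrays and the array highest in muscle miRNAs, miR-143 was -0.20 (day 42 against 1), 0.33 (day 7 against 1), 0.26 (day 14 against 1) and -0.43 (day 42 against 4), and miR-145 was 0.0453 (F-test p), 0.15 (day 7 against 4), -0.37 (day 42 against 14), 0.11 (day 14 against 4) and -0.40 (day 42 against 7). With this choice their difference was 0.21 (day 42 against 1), 0.031 (day 4 against 1) and 0.046 (day 7 against 4), and the number of calls was 3 (day 4 against 1) and 165 (day 14 against 7). With the second component as a covariate, miR-143 was 0.34 (day 4 against 1) and -0.29 (day 42 against 4), and miR-145 was 0.00586 (F-test p), -0.053 (day 42 against 1), 0.12 (day 7 against 4), -0.48 (day 42 against 14), 0.53 (day 7 against 1), 0.42 (day 14 against 1), 0.014 (day 14 against 4), -0.46 (day 42 against 4) and -0.58 (day 42 against 7). In that setting their difference was 0.077 (day 7 against 4) and -0.18 (day 42 against 14), and the number of calls was 27 (day 4 against 1) and 171 (day 14 against 7). On slide 1 alone, miR-143 was 0.59 (day 7 against 4) and -0.62 (day 42 against 14), and miR-145 was -0.73 (day 42 against 1), -0.82 (day 7 against 4) and -0.65 (day 42 against 14). With this choice their difference was -0.92 (day 42 against 1) and -1.41 (day 7 against 4). On slide 3 alone, miR-143 was -0.052 (day 7 against 4) and 0.069 (day 14 against 7), and miR-145 was 0.86 (day 42 against 1), 0.20 (day 14 against 7) and 1.1 (day 42 against 14). In that setting their difference was 1.08 (day 42 against 1) and 1.57 (day 42 against 14). With normexp, miR-143 was -0.43 (day 42 against 14), and miR-145 was -0.37 (day 42 against 1), -0.051 (day 4 against 1), 0.16 (day 14 against 7), -0.28 (day 7 against 1) and -0.11 (day 14 against 1). With this choice miR-143 on the 19 arrays was -0.42 (day 42 against 4) and -0.41 (day 42 against 14), and miR-145 on the 19 arrays was 0.374 (F-test p), -0.052 (day 7 against 1), 0.11 (day 14 against 1), -0.41 (day 42 against 7) and -0.57 (day 42 against 14). There too the number of calls was 92 (F-test), 2 (day 4 against 1), 0 (day 7 against 4), 9 (day 14 against 7) and 22 (day 42 against 14). With only the arrays of the 2 ages compared, miR-143 was 0.58 (day 7 against 1) and 0.51 (day 14 against 1), both no longer called. The number of calls was then 0 (day 4 against 1) and 168 (day 14 against 7). With probe 2 alone, miR-145 was -0.025 (day 42 against 1). On slide 2 alone, miR-145 was 0.19 (day 7 against 4), and their difference was 0.084 (day 7 against 4). With all miRNAs detected on any array, the number of calls was 9 (day 4 against 1). With single arrays left out, miR-143 ran from -0.12 to 0.16 (day 42 against 1) and from -0.51 to -0.43 (day 42 against 14). Likewise miR-145 ran from -0.34 to 0.20 (day 42 against 1), -0.11 to 0.031 (day 14 against 7), -0.37 to 0.18 (day 42 against 14), -0.085 to 0.23 (day 7 against 1), -0.12 to 0.20 (day 14 against 1) and -0.40 to 0.15 (day 42 against 7). Their difference ran from -0.39 to 0.29 (day 42 against 1) and -0.36 to 0.22 (day 4 against 1), and the number of calls from 3 to 12 (day 4 against 1). Sets without the arrays that stood apart, the second component as a covariate, the fits on 19 arrays and the lists without day 1 replicate 2 were added after the data had been seen.

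Arrays with the same replicate number were not steadily alike: of 46 pairs with the same number, 18 had deviations correlated over 0.1, with values from -0.857 to 0.839. These values were not set against pairs with unlike numbers, so they cannot show whether the numbers denote pairs. With the replicate block, miR-143 had an adjusted p of 0.0089 over the 5 ages, 0.51 for day 14 against 1 (adjusted p = 0.0114) and -0.48 for day 42 against 14 (adjusted p = 0.0368) in limma. The counts of calls became 205, 193, 4, 1, 100 and 94 for the F-test, day 42 against 1, day 4 against 1, day 7 against 4, day 14 against 7 and day 42 against 14, and no call of a member changed.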
